A study of Mus musculus with 3 samples.

Results

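The genes studied here mark the first steps of nephron formation and were followed across 3 culture media: Wnt4, Lhx1, Pax8, Papss2, Greb1 and Cdh6. They were chosen by name, as markers of the pretubular aggregate and the renal vesicle, with earlier results of these data known. All 6 were measured among the 19938 genes that had a probe set carrying exactly 1 gene symbol. Where a gene had more than 1 such probe set, the brightest on average was used. The samples were kidneys of C57BL/6 mouse embryos at embryonic day 11.5, kept for 48 h on porous filters. They were grown in serum-free DMEM with retinoic acid, a signalling derivative of vitamin A, in serum-free DMEM alone, or in DMEM with 10% fetal bovine serum. Each medium is represented by 1 Affymetrix Mouse Gene 1.0 ST array, 3 arrays in all, and the labels state no dose of retinoic acid. Without replicates the error of a value is unknown and nothing could be tested, so the numbers describe these 3 arrays only, and their number limits the precision.

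The nephron, the filtering unit of the kidney, arises from mesenchyme that surrounds the tips of the branching ureteric bud. Wnt9b from the bud induces part of this mesenchyme to gather into the pretubular aggregate, which switches on Wnt4, turns into an epithelial ball, the renal vesicle, and then folds into comma- and S-shaped bodies. Wnt4 and Lhx1 are each needed for some of these steps in the mouse. Both Lhx1 and Pax8 are also expressed in the ureteric bud and its forerunner, the nephric duct, so they do not mark the aggregate alone.

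Levels are log2 intensities unless a linear intensity is named. The medium with retinoic acid also lacked serum, and "without serum" below refers to the serum-free array set against the serum array. The size rule counted a gene only if its levels in the compared media were at least 2-fold apart and the higher of them reached a floor of 7.12, the median of all gene-level values. Because probe sets bind with unequal strength, levels are compared between media and not between genes. In such bulk RNA, fewer cells of a type and less RNA per cell cannot be told apart. All 10 genes fixed as markers of the embryonic kidney, among them Pax2, Wt1, Six2, Foxd1 and Ret, were at or above the floor on every array. Of 15 measured genes of maturing nephron segments and podocytes, 4 reached the floor on at least 1 array, and the podocyte gene Nphs1 and the loop of Henle genes Slc12a1 and Umod lay below it on all 3.

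In serum-free explants 5 of the 6 markers were at least 2-fold lower than in serum, and in the explants given retinoic acid all 6 had levels above those in serum-free medium. Wnt4 was at its serum level with retinoic acid, whereas Lhx1, Papss2, Pax8 and Greb1 lay between their serum-free and serum levels. Cdh6 was nearly level across the media. The plot of levels by medium shows the 18 values.

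**Figure D1:**
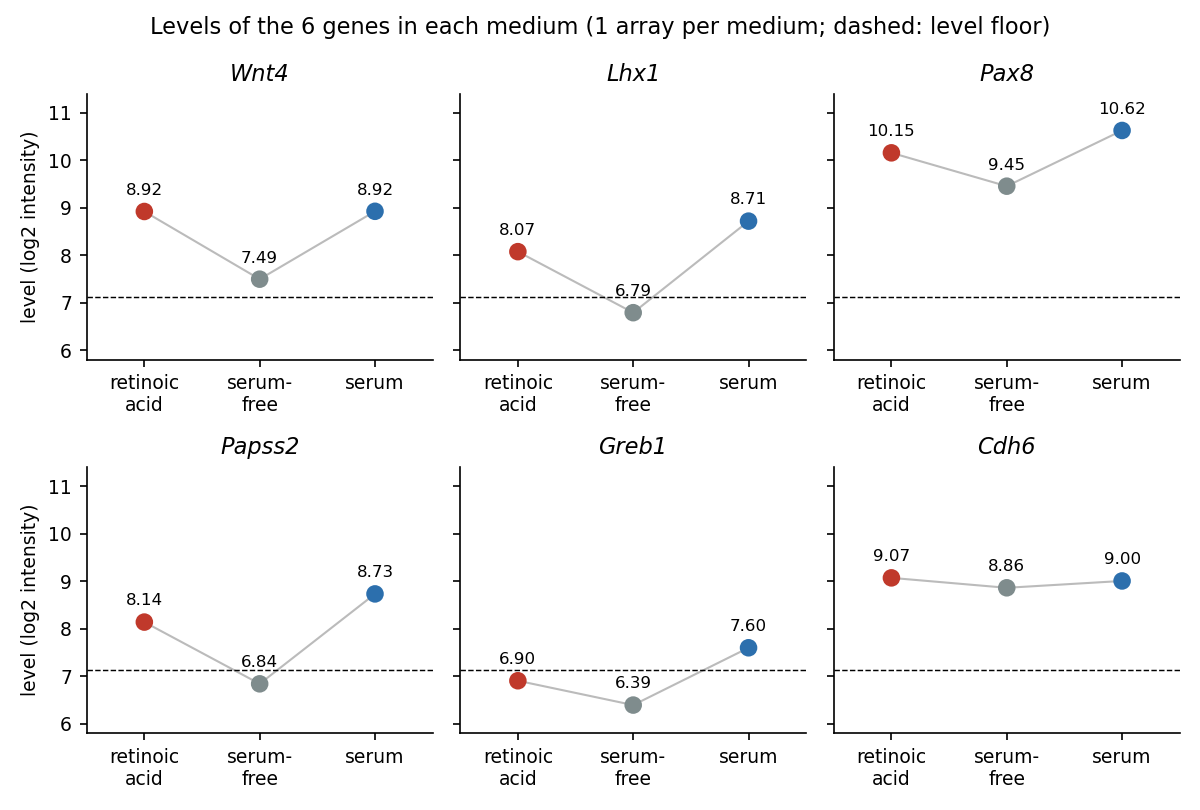
Level of each gene (vertical axis, log2 intensity) in explants with retinoic acid, in serum-free medium and in serum (horizontal axis); each point is 1 array, lines only join the points of a gene, and the dashed line is the floor of 7.12. Wnt4, Lhx1, Pax8, Papss2 and Greb1 are lowest in serum-free medium by over 0.5, and the Cdh6 levels span only 8.86 to 9.07; heights are not comparable between panels.

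Wnt4 encodes the secreted signal that drives the mesenchyme of the aggregate to become epithelium. Its probe set 10509273 had a linear intensity of 484 with retinoic acid, 180.2 in serum-free medium and 485 in serum. The serum-free explants stood apart, and those with retinoic acid and with serum had nearly equal values. Wnt4 was 2.69-fold lower in serum-free medium than in serum (a difference of -1.43), and 29 of the 10156 genes at or above the floor had larger decreases. It was 2.68-fold higher with retinoic acid than without (1.42), where 48 of 10111 genes had larger increases. The level with retinoic acid differed from that in serum by -0.0039. A further probe set of the gene, 10509267, gave 263 with retinoic acid, 119 in serum-free medium and 268 in serum, so it differed by -1.18 without serum and by 1.15 on addition of retinoic acid. Both probe sets passed the 2-fold size in both comparisons, with smaller differences in the dimmer of the pair.

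Lhx1 encodes a LIM homeodomain transcription factor that is needed for the renal vesicle to be patterned. Its probe set 10389283 had an intensity of 269 with retinoic acid, 111 in serum-free medium and 420.1 in serum. The level with retinoic acid lay between the other two, and the serum-free level of 6.79 lay below the floor, where background takes a larger share of the intensity. Lhx1 was 3.80-fold lower without serum, and 14 genes had larger decreases. With retinoic acid it was 2.44-fold higher than in serum-free medium, yet it differed by -0.64 from serum, or 1.56-fold lower.

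Papss2 encodes an enzyme that makes PAPS, the sulfate donor used to modify proteoglycans and steroids. Its probe set 10462507 read 282 with retinoic acid, 114 in serum-free medium and 425 in serum. These 3 levels followed those of Lhx1 closely: 3.71-fold lower in serum-free medium than in serum, 2.46-fold higher with retinoic acid than without it, and a difference of -0.59 between retinoic acid and serum. Here too the serum-free level, 6.84, was below the floor.

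Pax8 encodes a paired-box transcription factor that acts beside Pax2 in the nephric lineage. Its probe set 10480477 read 1137 with retinoic acid, 699 in serum-free medium and 1576 in serum, well above the floor on each array. Pax8 was 2.25-fold lower in serum-free medium than in serum. With retinoic acid it was 1.63-fold higher than in serum-free medium, a difference of 0.70 that did not reach the 2-fold size, and it differed by -0.47 from serum.

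Greb1, named for its response to oestrogen, encodes a cofactor of the oestrogen receptor in human breast cancer cells. Its probe set 10399505 read 119.7 with retinoic acid, 83.9 in serum-free medium and 194 in serum. Only the serum value reached the floor. Greb1 was 2.31-fold lower without serum, but with 32 added to all intensities, which damps low values, the difference was -0.96 and no longer passed the size rule. The differences were 0.51 for retinoic acid against serum-free medium, with both levels below the floor, and -0.69 for retinoic acid against serum.

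Cdh6 encodes a cadherin, a cell adhesion protein of the renal vesicle and of early proximal tubule cells. Its probe set 10427862 read 536 with retinoic acid, 464 in serum-free medium and 513 in serum. Its differences were -0.14 for serum-free against serum, 0.21 for retinoic acid against serum-free and 0.065 for retinoic acid against serum. Of the 6 genes it had the smallest difference in the first and the second of these comparisons.

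The promoter sequences of Wnt4, Lhx1 and Papss2 are shown because these 3 genes passed the 2-fold size both without serum and on addition of retinoic acid. Each is the 250 bases before a RefSeq transcript start (GRCm38.p6), read 5′ to 3′ on the gene's strand, from chr4:137277385-137277634 (plus strand) for Wnt4, chr11:84525535-84525784 (minus strand) for Lhx1, and chr19:32595465-32595714 and chr19:32619755-32620004 (plus strand) for the 2 starts of Papss2. Capitals mark GC boxes (GGGCGG, bound by SP factors) and, in the second Papss2 sequence, a retinoid receptor half-site (AGGTCA), on either strand. The remaining letters are in lower case.
Wnt4: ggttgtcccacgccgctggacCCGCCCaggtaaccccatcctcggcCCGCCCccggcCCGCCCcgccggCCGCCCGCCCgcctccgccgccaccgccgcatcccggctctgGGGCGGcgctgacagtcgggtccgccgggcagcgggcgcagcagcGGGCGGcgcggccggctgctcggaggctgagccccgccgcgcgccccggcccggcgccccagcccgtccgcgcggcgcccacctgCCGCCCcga
Lhx1: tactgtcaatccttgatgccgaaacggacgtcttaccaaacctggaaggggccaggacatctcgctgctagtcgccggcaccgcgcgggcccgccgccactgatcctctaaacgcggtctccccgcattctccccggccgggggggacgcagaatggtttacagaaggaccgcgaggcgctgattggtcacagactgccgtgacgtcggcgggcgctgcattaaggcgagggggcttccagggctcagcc
Papss2, first start: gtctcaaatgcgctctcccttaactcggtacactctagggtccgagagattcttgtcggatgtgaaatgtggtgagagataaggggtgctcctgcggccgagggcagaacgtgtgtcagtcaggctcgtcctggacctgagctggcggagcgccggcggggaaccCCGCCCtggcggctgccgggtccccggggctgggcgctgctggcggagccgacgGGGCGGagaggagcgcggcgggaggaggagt
Papss2, second start: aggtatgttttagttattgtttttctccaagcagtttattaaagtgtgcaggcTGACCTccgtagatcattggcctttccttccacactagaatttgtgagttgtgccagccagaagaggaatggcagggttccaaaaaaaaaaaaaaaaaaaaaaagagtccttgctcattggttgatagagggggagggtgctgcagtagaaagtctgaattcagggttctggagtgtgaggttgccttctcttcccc
Wnt4 held 8 GC boxes, some of them overlapping, and 84.3% of the bases in its window of 300 bases (250 before and 50 after the start) were G or C, against a median of 52.7% over 32851 promoter windows. A GC box was present in 35.7% of all windows. The half-site AGGTCA lay 197 bases before the second Papss2 start, with 1 more copy 88 bases before a start of Greb1, and 16.3% of all windows held it. The Lhx1 window held none of the motifs searched, which were, on both strands, these 2 and CTTTGA (the core bound by TCF/LEF factors, in 16.0% of windows), GGTTCA (10.4%), GCGTGAC (a core of PAX sites, 2.09%), TAATTA (a core of LIM homeodomain sites, 5.29%), TATAAA (13.6%) and a direct repeat of AGGTCA spaced by 5 bases (0.00913%). Over the 8 windows of the 6 genes, CTTTGA occurred in 1, after a start of Greb1, and the motifs listed after it in 0. These matches describe letters, not bound sites.

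The first comparison, serum-free medium against serum, asks how these genes differed when serum was left out of the medium. The nephron inducer Wnt4, the transcription factors Lhx1 and Pax8, Papss2 and Greb1 were all at least 2-fold lower, and Cdh6 was not. Of the 6 genes 5 were at least 2-fold lower, against 0.699% of all 10156 genes at or above the floor, and 0 were at least 2-fold higher, against 0.876%. Their median difference was -1.32, while that of all genes at or above the floor was -0.0041, with the lowest 1% of those genes at -0.83 or below. Of the 6 differences 6 were below 0, and over the 10156 genes 5181 were below and 1977 above 0, so a negative sign was common in this comparison. The 6 genes were chosen with earlier results of these data known. Their counts beside those of all genes, here and in the later comparisons, are therefore description only.

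The second comparison, retinoic acid against serum-free medium, asks how they differed when retinoic acid was added in the absence of serum. Wnt4, Lhx1 and Papss2 were at least 2-fold higher with retinoic acid, and Pax8, Greb1 and Cdh6 had smaller positive differences. Of the 6 genes 3 were at least 2-fold higher, against 1.05% of all 10111 genes at or above the floor, and 0 at least 2-fold lower, against 0.613%. Their median difference was 0.99, and that of all genes at or above the floor was 0.0. Greb1 was below the floor on both arrays and so could not be counted. The 5 markers at or above the floor had a median of 1.28. This comparison and the first share the serum-free array, so their values stand side by side and are not independent.

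**Figure D2:**
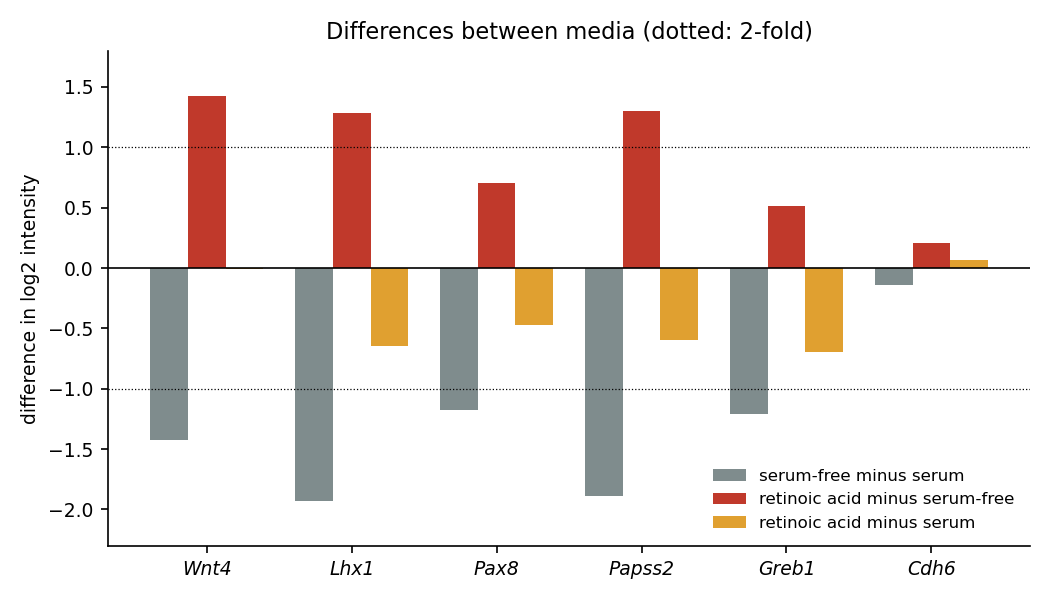
Differences in log2 intensity (vertical axis) for each gene: serum-free minus serum, retinoic acid minus serum-free, and retinoic acid minus serum; dotted lines mark the 2-fold size, and each bar is the difference of 2 single arrays. The bars of serum-free minus serum pass -1 for all but Cdh6, those of retinoic acid minus serum-free pass 1 for Wnt4, Lhx1 and Papss2, and no bar of retinoic acid minus serum reaches 2-fold.

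The third comparison, retinoic acid without serum against serum, does not involve the serum-free array and asks how far the levels with retinoic acid were from those with serum. None of the 6 passed the size rule: 0 were at least 2-fold higher, against 1.04% of 10169 genes, and 0 at least 2-fold lower, against 0.816%. The members' median was -0.53, with 5 differences below 0 and Cdh6 above it at 0.065, where 5214 of all 10169 genes were below and 2160 above 0. Greb1 at -0.69, Lhx1 at -0.64 and Papss2 at -0.59 had the largest deficits, and all 3 lay within the lowest 3% of genes in this comparison (1.97%, 2.37% and 2.74% of genes were lower). Wnt4 lay near the middle, with 50.4% of genes lower.

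Other genes of the aggregate, the renal vesicle and the bodies that follow were taken from a list of 32, of which 30 were measured and 27 were at or above the floor on at least 1 array. Without serum, 4 of the 30 were at least 2-fold lower, against 0.699% of all genes at or above the floor. The number at least 2-fold higher was 0, against 0.876%, and the median difference was -0.38, with 28 values below 0. Between retinoic acid and serum-free medium, 1 of the 30 passed the rule as higher, against 1.05% of all genes, and 0 as lower, against 0.613%. The median there was 0.0. For retinoic acid against serum, 5 were at least 2-fold lower, against 0.816% of all genes, and 0 higher, against 1.04%, with a median of -0.56. With retinoic acid against serum-free medium the 30 had 11 values above 0 and 14 below. The 25 of them at or above the floor had 10 above and 13 below, with a median of -0.10. Among all 10111 genes at or above the floor 2984 were above and 3549 below. The medians of all genes in the 3 comparisons were -0.0041, 0.0 and -0.0053.

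Dll1, which encodes a Notch ligand of the vesicle, was the gene of this list past the size rule both without serum and on addition of retinoic acid. Its levels were 7.43 with retinoic acid, 6.42 in serum-free medium and 7.43 in serum. It was 1.02 higher with retinoic acid than without and 1.02 lower without serum than with it, although the serum-free level was below the floor. The levels of Dll1 with retinoic acid and in serum were exactly equal, as median polish over few arrays can return. Both differences thus rest on the same serum-free value. With 32 added to the intensities Dll1 no longer passed the size rule in either comparison. The other 3 genes at least 2-fold lower without serum had smaller positive differences with retinoic acid. Bcat1, an enzyme gene of branched-chain amino acid metabolism, differed by -1.24 without serum and by 0.45 with retinoic acid. For Tmem100, a membrane protein gene, these differences were -1.10 and 0.56, and for Bmp2, a signal of the vesicle, -1.06 and 0.44. With 32 added to the intensities, 1 gene of the list instead of 4 was at least 2-fold lower without serum.

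A further group was lowest with retinoic acid. Dkk1, which encodes a secreted Wnt inhibitor, stood at 7.86 with retinoic acid, 8.82 in serum-free medium and 9.78 in serum, so its difference between retinoic acid and serum was -1.92. C1qtnf12, a gene for a secreted protein, had levels of 9.13, 9.80 and 10.52 in the same order of media. Heyl, a Notch target gene, differed by -1.24 between retinoic acid and serum, Lfng, which encodes an enzyme that modifies Notch receptors, by -1.12, and Sfrp2, a gene for a secreted Wnt modulator, just passed the size rule, at 10.94 with retinoic acid and 11.94 in serum. None of these 5 genes was at least 2-fold lower in serum-free medium than in serum. The Notch ligand gene Jag1 had differences of -0.65 without serum and -0.10 on addition of retinoic acid, so the ligand genes Jag1 and Dll1 did not have the same pattern.

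**Figure D3:**
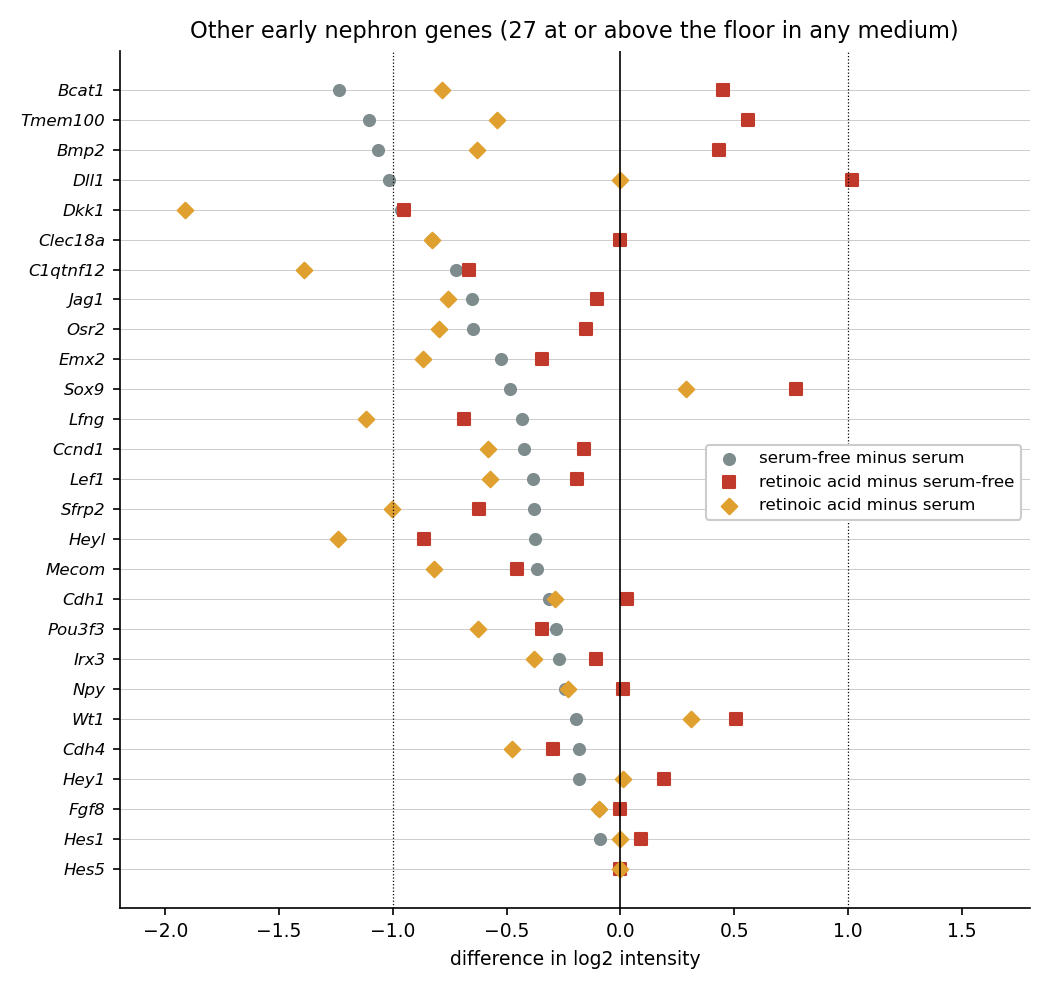
Differences in log2 intensity (horizontal axis) for the 27 other early nephron genes at or above the floor on at least 1 array, ordered by serum-free minus serum; symbols distinguish the 3 comparisons, each between 2 single arrays, and dotted lines mark the 2-fold size. No serum-free minus serum value is above 0, retinoic acid minus serum-free values lie on both sides of 0, and Dkk1 reaches -1.92 for retinoic acid minus serum.

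Genes that act before Wnt4 in this pathway were read on the same arrays. Wnt9b, the inducer from the ureteric bud, stood at 7.35 with retinoic acid, 7.14 in serum-free medium and 7.35 in serum. Of 20 measured regulators that act on or in the mesenchyme, among them Pax2, Six2, Eya1, Sall1, Wt1, Osr1 and the FGF genes Fgf8, Fgf9 and Fgf20, 0 passed the size rule in any comparison. In each direction of a comparison 0.613% to 1.05% of all genes at or above the floor passed it, so 0 of 20 was near that share. On addition of retinoic acid 8 were above 0 and 8 below, with Osr1 at -0.97, Six2 at -0.86 and Foxc2 at 0.65. The median of the 20 was -0.12 without serum and 0.0 on addition of retinoic acid. Fgf8, a signal needed for Wnt4 and Lhx1 expression in the mouse aggregate, had differences of -0.10 and 0.0 in these comparisons. Of 29 measured Wnt receptors and transducers 0 passed the size rule in any comparison, again near the share of all genes. Lef1, a partner and target of beta-catenin, differed by -0.38 without serum and by -0.19 with retinoic acid, and Axin2, a general target of beta-catenin, by 0.0 and -0.10.

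Nephron progenitors, from which the aggregate arises, had a median of 0.029 over 19 genes for serum-free against serum. In that comparison 0 passed the size rule in either direction, against 0.699% of all genes lower and 0.876% higher. With retinoic acid against serum-free medium their median was -0.094. The size rule counted 2 as lower (Cited1 at -2.13 and Meox2 at -1.52), against 0.613% of all genes at or above the floor. It counted 1 as higher (Meox1 at 1.81), against 1.05%. Six2, which keeps the progenitors undifferentiated, had levels of 10.39 with retinoic acid, 11.26 in serum-free medium and 11.03 in serum. Six2 was thus highest in the medium where Wnt4, Lhx1, Pax8, Papss2 and Greb1 were lowest, but only 0.23 above its serum level. For serum-free against serum 10 progenitor genes were above 0 and 7 below. Meox1 was lowest in serum-free medium, at 8.19.

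Since Lhx1 and Pax8 are also genes of the ureteric bud, its markers are given beside them. Of 14 measured tip genes, 2 were at least 2-fold lower in serum-free medium than in serum (Slco4c1 at -2.31 and Ret at -1.16). This compares with 0.699% of all genes at or above the floor, and the tip median was -0.53. With retinoic acid against serum-free medium, 2 tip genes were at least 2-fold higher (Adamts18 at 1.62 and Ret, 2.83-fold), against 1.05% of all genes. The tip median there was 0.40. Of 16 trunk genes, 2 were at least 2-fold lower without serum, Calb1 at -1.94 and Elf5 at -1.40, against 0.699% of all genes. The trunk median was -0.15. With retinoic acid Calb1 was higher by 2.18, Krt19 by 1.40 and Cdh16 lower at -1.10, while Elf5 differed by 1.12 with both of those levels below the floor. Thus 2 trunk genes were at least 2-fold higher, against 1.05% of all genes, and 1 lower, against 0.613%. The trunk median there was 0.0, with 6 genes above 0 and 7 below. The part of bud cells in the values of Lhx1 and Pax8 was not tested.

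**Figure D4:**
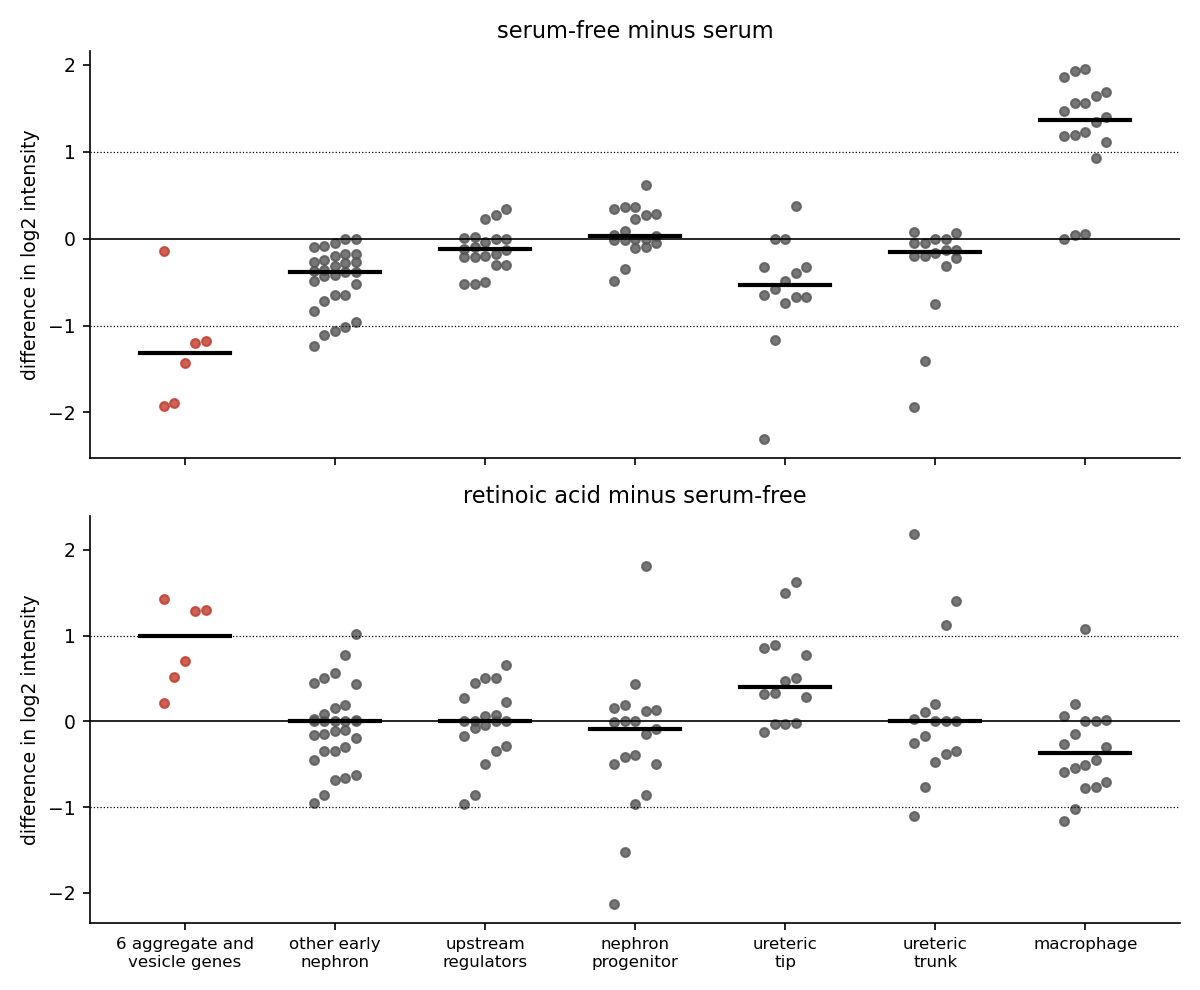
Differences in log2 intensity (vertical axis) of the 6 aggregate and vesicle genes and of 6 other gene lists, for serum-free minus serum (upper panel) and retinoic acid minus serum-free (lower panel); each point is 1 measured gene, bars are list medians and dotted lines mark the 2-fold size. The 6 genes have medians of -1.32 and 0.99, the other early nephron genes -0.38 and 0.0, the ureteric tip genes -0.53 and 0.40, and the macrophage genes 1.37 and -0.37.

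Among relatives of the 6 genes, Pax2, the other gene of the Pax family at or above the floor, had levels of 10.56 with retinoic acid, 10.56 in serum-free medium and 10.77 in serum, a difference of -0.21 without serum against -1.17 for Pax8. Papss1, which encodes the other PAPS synthase, stood at 8.51, 8.51 and 8.52 in the same order of media. Of 22 measured genes of sulfate activation, transport and transfer, Papss2 was the sole one past the size rule in any comparison. Among 19 Wnt genes 6 reached the floor on at least 1 array, and Wnt4 was the sole one past the size rule in any comparison. In each direction of a comparison 0.613% to 1.05% of all genes at or above the floor passed it. That no other gene of these lists passed was near that share. The values for Wnt11, a tip gene, were -0.67 without serum and 0.33 on addition of retinoic acid. Those for Wnt5a were -0.36 and 0.53.

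Among 11 measured LIM homeobox genes, Isl1 and Lmx1b reached the floor beside Lhx1. Isl1 differed by 0.45 without serum and by -0.18 on addition of retinoic acid, and Lmx1b had the same level, 7.83, on all 3 arrays. Ldb1, Ssbp3 and Rlim, which encode partners of LIM homeodomain factors, had differences between -0.13 and 0.13 in both. The full list of 8 measured Lhx1 cofactor genes ranged from -0.13 to 0.22 without serum and from -0.40 to 0.13 on addition of retinoic acid. Greb1l, the relative of Greb1, stayed below the floor at 6.09 with retinoic acid, 7.03 in serum-free medium and 6.65 in serum, and so was highest in the medium where Greb1 was lowest. Esr1, the oestrogen receptor gene, was also below the floor, at 6.79, 6.82 and 6.81. Of 22 cadherin genes, Cdh16, a kidney cadherin, was the sole one past the size rule in any comparison. All genes at or above the floor passed it at 0.613% to 1.05% in each direction of a comparison. Cdh16 was at 8.22 with retinoic acid, 9.33 in serum-free medium and 9.26 in serum. E-cadherin (Cdh1) differed by -0.31 without serum and 0.03 with retinoic acid.

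The genes with patterns most like each of the 6 were found as those with the smallest Euclidean distance over 2 differences, serum-free minus serum and retinoic acid minus serum-free, among 9853 other genes at or above the floor on at least 1 of the 3 arrays, with gene models and clones (Gm, Rik, LOC and accession-like names), olfactory, vomeronasal, histone and ribosomal protein genes and small RNA genes left out. Lhx1 and Papss2 were each other's nearest gene, at a distance of 0.037, followed for both by Klf9 and Arg2. Nearest to Wnt4 were Ret at 0.28, Elf5 at 0.31 and the neuropeptide gene Adcyap1 at 0.32. Nearest to Pax8 were the oxytocin receptor gene Oxtr at 0.035, Tmem100 at 0.15 and the chloride channel gene Ano1 at 0.17. For Greb1 these were Bcat1 at 0.067, Fhl2 at 0.094 and Tmem100 at 0.11. Cdh6, in the crowded range of small differences, had Reck at 0.011, Zfp637 at 0.016 and Bmt2 at 0.017.

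Other differences between the arrays ran beside those of the 6 genes. Macrophage genes passed the size rule as higher in serum-free medium than in serum in 14 of 18 cases, against 0.876% of all genes at or above the floor. The summed intensity of the macrophage genes was 10253 with retinoic acid, 14531 in serum-free medium and 5038 in serum. The summed intensity of the 6 markers was 2828, 1653 and 3612 in the same order. Smooth muscle genes were lower by the size rule without serum in 5 of 12 cases, against 0.699% of all genes. With retinoic acid against serum-free medium they were lower in 2, against 0.613%. Xist, transcribed in female cells, was at 9.79 with retinoic acid, 11.48 in serum-free medium and 10.84 in serum, and the Y-linked gene Uty was at 8.38, 7.29 and 7.93, so the sex of the embryos and the medium cannot be told apart here. The part of these shifts in the differences of the 6 genes was not tested.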

How the data were processed

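The deposited values are linear probe set intensities of 3 arrays, made by the authors with Affymetrix Expression Console 1.1 and RMA (background subtraction, quantile normalization and median polish), per the submitters' processing notes. Further settings are not stated there. Sample names link the columns to the labelled media. Values were taken to log2, with nothing added and no rescaling. The platform annotation gave 1 symbol to 21789 of 35556 probe sets, several to 1621 and none to 12146, and only the first kind was used. Gene IDs of 21698 were found in RefSeq (GRCm38.p6), with 0 symbols changed. Promoter sequences are from RefSeq on that build, and 6 of 6 genes matched. Among genes at or above the floor, 29.5% had exactly equal values in serum-free medium and serum and 35.4% with and without retinoic acid, as median polish over few arrays can return, so a difference of 0.0 does not show equal expression.

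The 6 genes, the gene lists and the motifs were chosen with earlier results of these data known. The rule for named genes covered the 6 genes, the largest differences and those past the size rule of each list described, relatives at or above the floor, and the 3 most similar patterns per gene. Not every gene it covered is named: macrophage and smooth muscle genes are given as counts, and of the Wnt, cadherin and other lists only some genes are named, picked with their values known. Fgf8, Jag1, Lef1, Axin2, Wnt9b, Six2, Greb1l, Esr1, Papss1, Ldb1, Ssbp3 and Rlim are given for their roles. Alternatives were cyclic loess (limma 3.58.1 in R 4.3.3), median centring, 32 added to the intensities, the mean of a gene's probe sets, a floor at the 25th percentile, no floor, and a 1.5-fold size. The selection and size rule were tested on simulated data. Tables and figures were made with Python 3.11.15, pandas 2.3.3 and matplotlib 3.10.9. Genes of the lists with no single-symbol probe set were not analysed here.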

Additional observations from a re-analysis of the deposited data

How the results depend on the processing

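Of 18 differences (6 genes in 3 comparisons) under 7 alternatives, the sign turned in 2 of 126 values. Both were for Wnt4 in retinoic acid against serum, which ranged from -0.017 to 0.056. Many of the 126 could not turn, because the 2 floor settings and the 1.5-fold size leave a difference itself unchanged. The mean of a gene's probe sets changes only Wnt4 among the 6. With 32 added to the intensities, Greb1 differed by -0.96 without serum and no longer passed the size rule, the other early nephron genes at least 2-fold lower without serum numbered 1 instead of 4, and those at least 2-fold higher with retinoic acid 0 instead of 1. With a 1.5-fold size, Pax8 passed at 0.70 for retinoic acid against serum-free medium, as did the median of the 6 genes at 0.99. For retinoic acid against serum, Lhx1 at -0.64, Papss2 at -0.59 and Greb1 at -0.69 then counted as lower, making 3 of the 6. At that size the other early nephron genes numbered 9 lower for serum-free against serum, 2 higher and 5 lower for retinoic acid against serum-free, and 13 lower for retinoic acid against serum. All genes counted at 1.5-fold were 204 higher and 210 lower, 244 higher and 196 lower, and 250 higher and 289 lower in these 3 comparisons. The other 275 of 294 values stayed on their side of the size rule or, for counts, within 1.5 times. They include the differences that some settings leave unchanged. Over all alternatives the median of the 6 genes ranged from -1.32 to -1.21 for serum-free against serum and from 0.88 to 1.00 for retinoic acid against serum-free. No paired analysis was possible because each medium has 1 array. Values below the floor (Lhx1 and Papss2 without serum, Greb1 there and with retinoic acid) limit the size of those differences.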
